A study of Drosophila melanogaster with 4 samples.

Results

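The jonah and trypsin genes encode secreted serine proteases with which the fly gut digests protein. They were followed here in guts of female Drosophila melanogaster fed a chemical diet without manganese or with it. Members were taken by gene symbol: 16 genes named Jon with a number, 11 genes named from alphaTry to lambdaTry, and Ser6, Ser8, Ser12 and yip7. That makes 31 of the 13932 genes in the table, and every one of them had a row. The flies were of the wild-type strain Oregon R-C. Parents, 10 females and 10 males, laid eggs for 5 days on food with no manganese added or with 5 ppm manganese. Newly emerged daughters stayed 5 days on fresh food of their own kind before the guts were taken. Each diet has 2 RNA-seq libraries, named as replicates B and C in the column names of the table. Both diets share the chemical base, so flies on ordinary food are not part of the comparison. The age of the guts' donors beyond these days and the number of guts in a library are not given in the labels. Whether replicates of the same letter belong together across the diets is not given there either. Separate cultures behind the libraries are not stated either. The p-values therefore reflect only how far these libraries lie apart, which may be technical.

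Serine proteases of this kind cut a peptide chain with a serine, a histidine and an aspartate in their active site. They are made as inactive precursors by enterocytes, the absorptive cells of the midgut, and are secreted into the lumen. Trypsins cut after the basic residues lysine and arginine, whereas jonah proteases belong to the chymotrypsin-like branch of the same family. The genes lie in small tandem clusters, and their transcripts differ along the length of the midgut. In whole guts, fewer cells that make a transcript and less of it per cell cannot be told apart. The shorter peptides that result are trimmed further by carboxypeptidases and aminopeptidases.

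Values are RPKM, reads per kilobase of gene scaled to the reads of the library. Whole-read steps in the low values put the libraries at 24399635 to 28010745 reads. At that depth 3 reads in a gene of 1000 bases are worth 0.107 to 0.123 RPKM. As the gut label asks, the genes listed here as enterocyte markers were present, and 8 of 8 had a mean of at least 1 RPKM. How far each of them is particular to enterocytes was not tested. Together the 8 genes summed to 4237 and 4174 RPKM without manganese, against 4619 and 4035 RPKM with it. Most of each sum was Vha16-1, at 2332 and 2416 RPKM without manganese, against 2356 and 2064 RPKM with it. Of the 8 markers 2 had the higher mean without manganese and 6 the lower. Npc1b had 352 and 367 RPKM without manganese, against 585 and 483 RPKM with it. In mex1 it was 317 and 300 RPKM, against 293 and 266 RPKM. RNA of other organs was present too. The 20 eggshell and oocyte markers found summed to 595 RPKM in the no-manganese library C, against 1.60, 2.94 and 6.10 RPKM in the no-manganese library B and the 5 ppm libraries B and C. Vm32E and Vm26Ac, which encode vitelline membrane proteins of the egg, were at 35.3 and 10.5 RPKM in the no-manganese library C and at 0 in the other 3. The 6 fat body and yolk markers were higher in C than in B on both diets, at 330.3 and 833 RPKM without manganese, against 209 and 479 RPKM with it. Beyond a rescaling of the libraries without it and without mitochondrial RNA, given at the end, the part of this RNA in the results below was not tested. The 11 visceral muscle markers together summed to between 826 and 891 RPKM in each of the 4 libraries.

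The proteases were among the most abundant transcripts of these guts. By mean RPKM over the 4 libraries, alphaTry ranked 3 of 13932 genes, yip7 14, Jon65Aiv 15, Jon65Aiii 23 and Jon25Biii 46. At the other end Jon66Ci, Jon66Cii, gammaTry and Ser12 lay under 1 RPKM. All 31 members together held 5.72% and 5.16% of the summed RPKM without manganese (B and C), against 5.41% and 4.15% with it. The 16 jonah genes summed to 13356 RPKM in B and 12159 RPKM in C without manganese, against 13255 RPKM in B and 7901 RPKM in C with 5 ppm. The 5 ppm library C stood apart as the low one, and the other 3 lay close together. The log2 ratio of the diet means was 0.27 for jonahs, -0.06 without the 5 ppm library C and 0.69 without the 5 ppm library B. The 11 trypsins summed to 15073 RPKM in B and 11881 RPKM in C without manganese, against 13404 RPKM in B and 11357 RPKM in C with 5 ppm. Here the diets overlapped, B was above C on both diets, and the log2 ratio of the means was 0.12. That ratio was -0.06 without the no-manganese library B, 0.28 without the no-manganese library C, 0.25 without the 5 ppm library B and 0.01 without the 5 ppm library C. In both groups a few genes set the sum, so it says little of the weaker members.

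**Figure D1:**
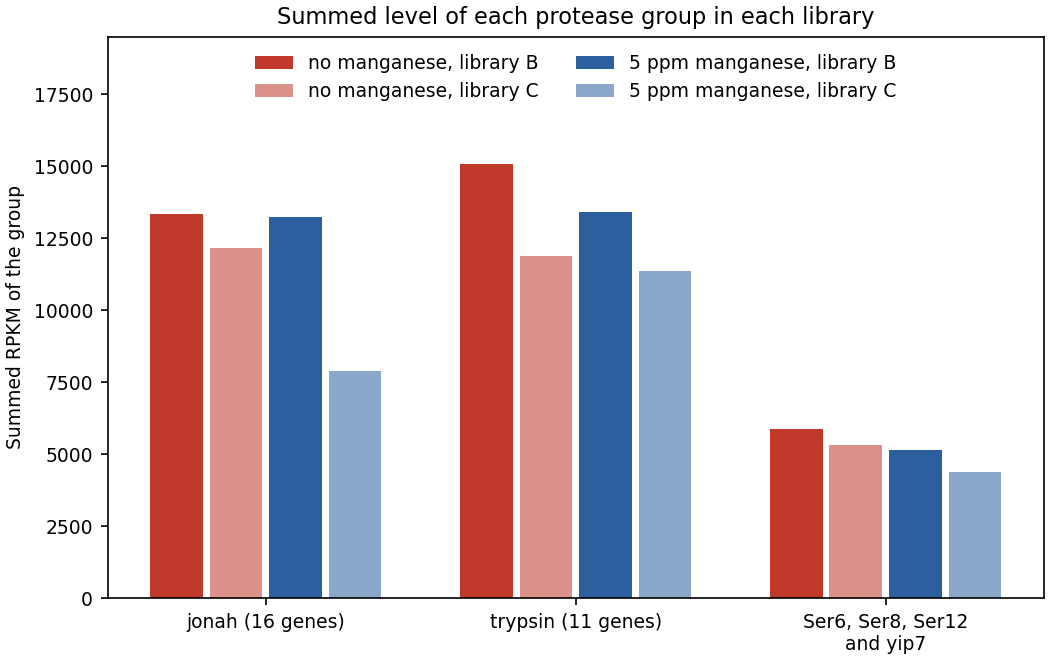
Summed RPKM of the 16 jonah genes, the 11 trypsin genes and the 4 other members, 1 bar per library, red for no manganese and blue for 5 ppm manganese, with full colour for library B and pale colour for library C. The jonah bar of the 5 ppm library C, at 7901 RPKM, is the lowest of its group.

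No member passed the test for a difference between the diets. Each gene with a mean of at least 1 RPKM was tested with limma on log2(RPKM + 1), which left 27 of the 31 members: 14 jonahs, 10 trypsins, Ser6, Ser8 and yip7. At an adjusted p under 0.05, 0 members were called higher and 0 lower, where 0 of the 7556 genes tested, or 0%, were called in either direction. Before adjustment, in this fit without a term for the library letter, p was under 0.05 for 3 higher members, Jon74E, Jon65Aiii and deltaTry, and for 0 lower ones, beside 2.89% higher and 2.95% lower among all tested genes. With limma's voom on the recovered reads the counts of members were 0 called and 3 at an unadjusted p under 0.05. With 1 library left out the genes called in all reached 11, without the no-manganese library B, and 5, without the no-manganese library C, none of them a member. The values that follow are therefore differences without a call, and "higher" means only that the no-manganese mean was above the other. A log2 fold change here is the no-manganese mean less the 5 ppm mean of log2(RPKM + 1), which understates those of low genes.

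The jonahs and the trypsins differed in how far their libraries lay apart. Of the 14 tested jonahs 7 were higher and 7 lower without manganese, with a median log2 fold change of -0.01. Of the 10 tested trypsins 9 lay higher and 1 lay lower, the median being 0.09. Over all tested genes the counts were 4258 and 3298, the median 0.02. The median SE of a fold change was 0.55 among jonahs and 0.16 among trypsins, against 0.13 over all tested genes. Without overlap between the diets, 3 jonahs, 3 trypsins and yip7 were higher, which is 7 of 27 members, where 21.7% of all tested genes were. Without overlap 1 member, Ser6, was lower, where 15.2% of all tested genes were.

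**Figure D2:**
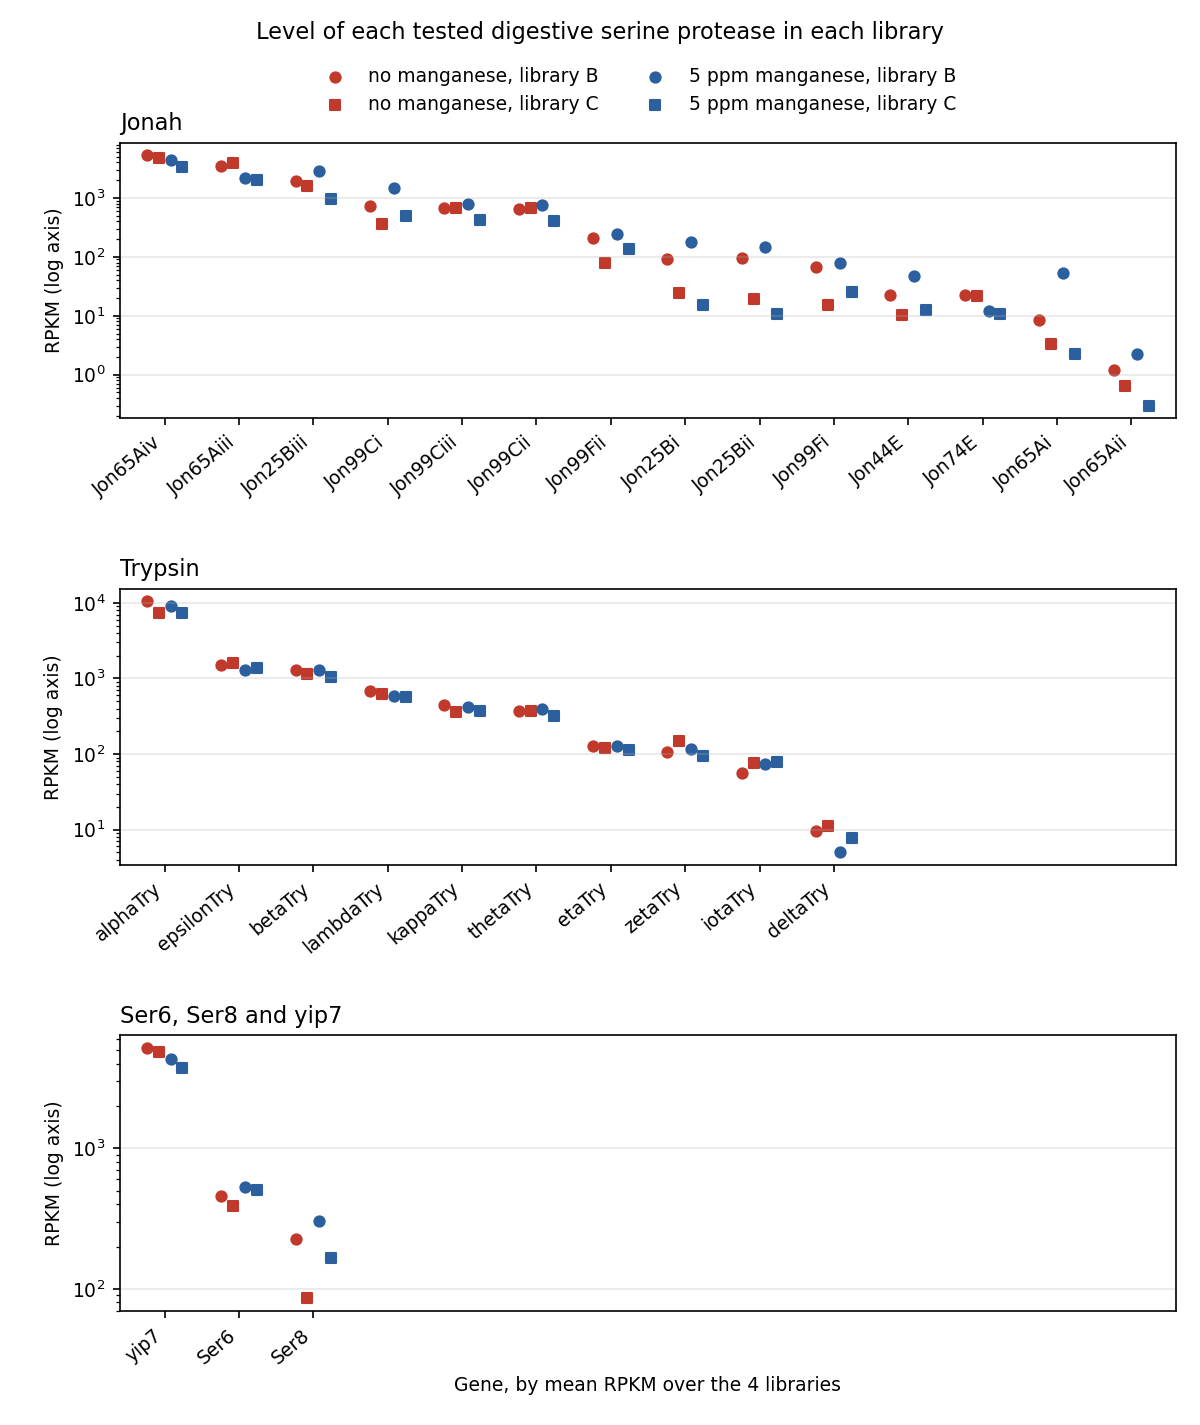
RPKM on a log axis of the 27 members that were tested, 1 point per library (red, no manganese; blue, 5 ppm manganese; circles, library B; squares, library C), ordered within each group by mean level. The 4 points of most trypsins lie close together, with deltaTry wider, from 5.06 to 11.1 RPKM. In jonahs such as Jon25Bi, Jon25Bii and Jon65Ai the circles stand well above the squares.

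Among the jonahs, Jon74E, Jon65Aiii and Jon65Aiv had both no-manganese libraries above both 5 ppm libraries. Jon74E had 22.4 RPKM in B and 21.6 RPKM in C without manganese, against 11.9 RPKM in B and 10.7 RPKM in C with 5 ppm. The libraries of a diet lay close together, and the diets were 1.94-fold apart in their means. These RPKM rest on 528, 514, 263 and 271 reads in the same order. Its log2 fold change was 0.90 ± 0.10 SE (limma, adjusted p = 0.487), 0.85 within the B libraries and 0.95 within the C libraries. Jon74E (FBgn0023197) sits on the minus strand of chromosome 3L from 17548077 to 17549127 in dm6, a protein-coding gene of 3 exons with 903 exon bases and no other member near it. CG7542, a serine endopeptidase gene described below, starts close by on the plus strand at 17549826, and their annotated exons do not overlap.

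The largest differences in RPKM between the diet means came from a cluster on chromosome 3L, where yip7 and the Jon65A genes lie between 6035216 and 6054443 on dm6. Jon65Aiii (FBgn0035665, chromosome 3L from 6050757 to 6051690, plus strand) had 3511 RPKM in B and 3964 RPKM in C without manganese, against 2209.8 RPKM in B and 2026 RPKM in C with 5 ppm. The diets did not overlap, and the log2 fold change was 0.82 ± 0.16 SE (limma, adjusted p = 0.776). Its means were 1.76-fold apart. Jon65Aiv (FBgn0250815) had 5317 and 4735 RPKM without manganese, against 4367 and 3374 RPKM with it. The protease gene yip7 (FBgn0040060), at the start of the cluster, had 5187 and 4849.8 RPKM without manganese, against 4301 and 3724 RPKM with it. Both again had the no-manganese libraries on top, with log2 fold changes of 0.39 ± 0.21 SE and 0.33 ± 0.18 SE, adjusted p = 0.814 and 0.815 in limma. Without the 5 ppm library C that of Jon65Aiv was 0.20 and that of yip7 0.22.

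Along the chromosome the order of the cluster is yip7, CG6462, Jon65Aiv, Jon65Aiii, Jon65Aii and Jon65Ai. The 3 abundant genes of the cluster, yip7, Jon65Aiv and Jon65Aiii, lay between 2026 and 5317 RPKM in all libraries. Between them CG6462, which is no member, was near the floor of the test, at 1.24 and 1.38 RPKM without manganese, against 1.60 and 0.927 RPKM with it. Jon65Aii and Jon65Ai, at the far end, were low and went with the library letter instead of the diet. Jon65Aii had 1.19 and 0.639 RPKM without manganese, against 2.21 and 0.30 RPKM with it, from 26, 14, 45 and 7 reads. Jon65Ai had 8.37 and 3.32 RPKM without manganese, against 52.6 and 2.21 RPKM with it. Its 5 ppm library B was far above the other 3 libraries. Summed over its 5 members, the cluster had 13789 ± 334 RPKM without manganese and 10029.5 ± 1278 RPKM with it (mean ± SD, n = 2 each), a log2 ratio of 0.46.

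**Figure D3:**
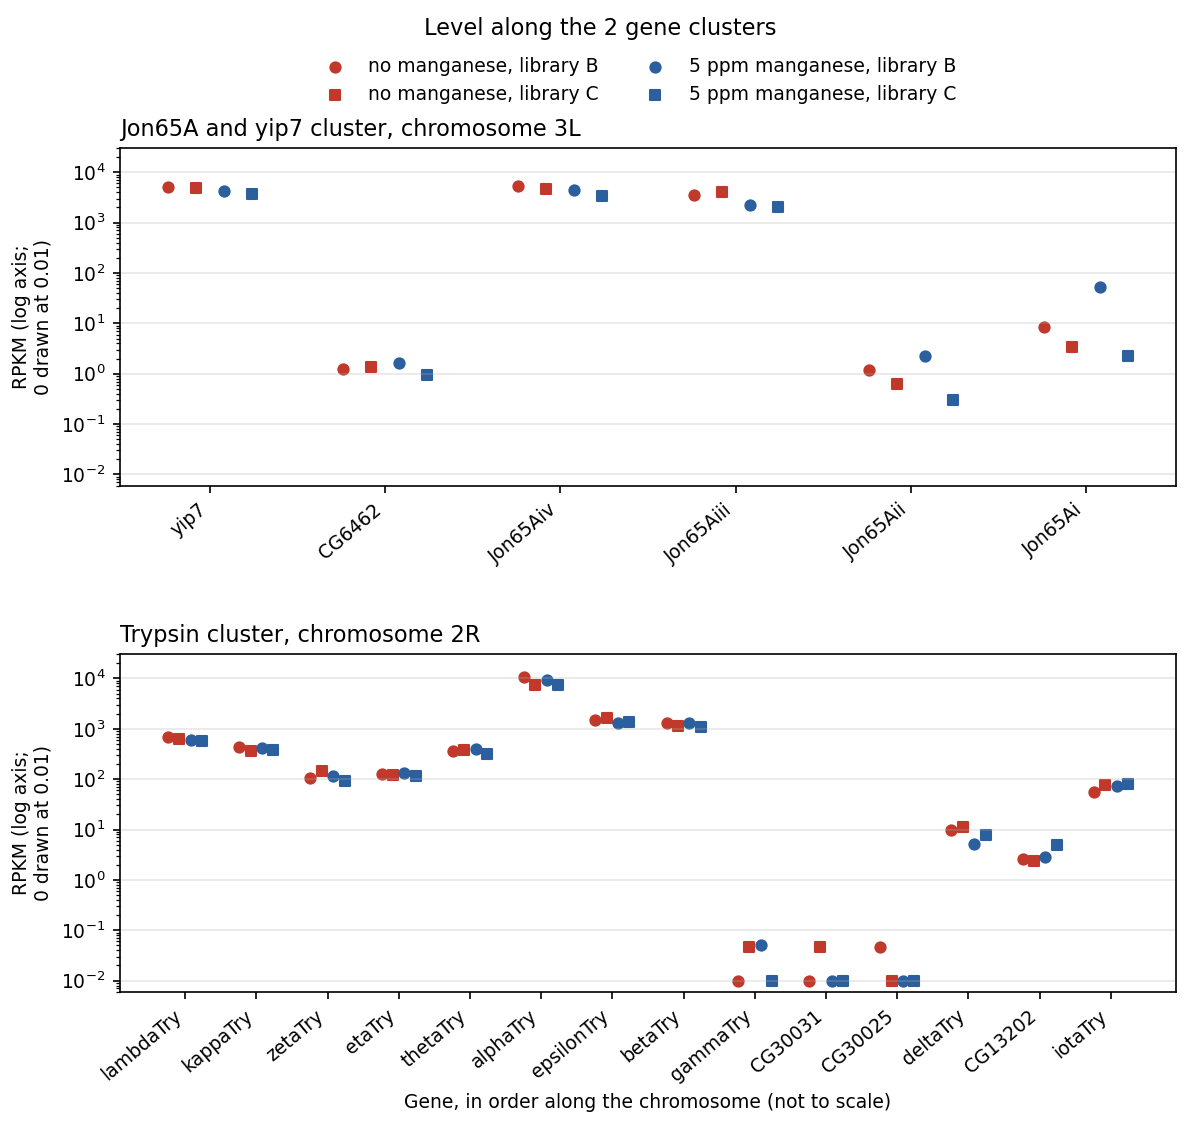
RPKM on a log axis of every gene of the table within the yip7 and Jon65A cluster (top) and within the trypsin cluster (bottom), in order along the chromosome and not to scale, 1 point per library, with values of 0 drawn at 0.01. In the top panel the red points of yip7, Jon65Aiv and Jon65Aiii lie above the blue ones, and in Jon65Ai the circle of the 5 ppm library B, at 52.6 RPKM, stands over the other points.

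Most other jonahs differed by library letter more than by diet. The yolk markers ran the other way, higher in C. The 7 Malpighian tubule markers summed to 325 RPKM in B and 310 RPKM in C without manganese, and 299 and 272 RPKM with it. Most of each sum was Tsp42Ed, at 277 RPKM in B and 232 RPKM in C without manganese, and 229 and 203 RPKM with it. Uro, salt, Irk3 and NaPi-T, all under a mean of 1 RPKM, were higher in B on both diets. Irk2 was higher in C without manganese. The part of these other organs in the letter difference was not tested. In 10 of 14 tested jonahs both B libraries were above both C libraries, where 20.2% of all tested genes showed that order. The order sets no size, and Jon99Ciii met it with 672.4 RPKM in B and 669.5 RPKM in C without manganese. The reverse order was seen in 0 tested jonahs, where 23.5% of all tested genes had it. A difference of at least 2-fold on the log2(RPKM + 1) scale, B over C on both diets, was found in 6 of 14 tested jonahs, Jon25Bi, Jon25Bii, Jon44E, Jon65Ai, Jon99Ci and Jon99Fi. Over all tested genes 26, or 0.344%, met it. No p is given for these counts, since the letters are no condition of the study and the libraries of a letter are 1 per diet.

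The Jon25B genes lie together on chromosome 2L. Jon25Bi had 92.6 RPKM in B and 24.2 RPKM in C without manganese, and 179 RPKM in B and 15.2 RPKM in C with it, so B was above C by 3.83-fold without manganese and 11.8-fold with it. Jon25Bii had 95.9 RPKM in B and 19.5 RPKM in C without manganese, and 145 RPKM in B and 10.7 RPKM in C with it, or 4.91-fold without manganese and 13.5-fold with it. Both genes had the same pattern, the 5 ppm libraries being the highest and the lowest of the 4. Jon25Biii, their much more abundant neighbour, had 1961 RPKM in B and 1593 RPKM in C without manganese, and 2888 RPKM in B and 969.9 RPKM in C with it. The order was the same but the steps were smaller, 1.23-fold without manganese and 2.98-fold with it. Between the diets the log2 fold change was -0.15 ± 1.31 SE for Jon25Bi, 0.11 ± 1.41 SE for Jon25Bii and 0.08 ± 0.55 SE for Jon25Biii. For each of them the no-manganese library was lower within B and higher within C.

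The Jon99C and Jon99F genes of chromosome 3R showed the letter as well. Jon99Ci had 727 RPKM in B and 362 RPKM in C without manganese, and 1459 RPKM in B and 496 RPKM in C with it. Jon99Fi had 67.2 RPKM in B and 15.3 RPKM in C without manganese, and 78.6 RPKM in B and 25.4 RPKM in C with it, and Jon99Fii had 204 RPKM in B and 77.1 RPKM in C without manganese, and 248 RPKM in B and 137 RPKM in C with it. In all of these B was above C on both diets. In Jon99Ci, Jon99Fi and Jon99Fii the no-manganese library was also the lower one within each letter. Within B and C the log2 fold changes were -1.0 and -0.45 for Jon99Ci, -0.22 and -0.70 for Jon99Fi, and -0.27 and -0.82 for Jon99Fii. Jon44E, on chromosome 2R, shared that pattern, with 22.7 RPKM in B and 10.5 RPKM in C without manganese, and 47.5 RPKM in B and 12.7 RPKM in C with it. Its log2 fold changes were -1.04 within B and -0.25 within C. Over both letters the log2 fold change was -0.73 ± 0.62 SE for Jon99Ci (limma, adjusted p = 0.865), -0.46 ± 0.87 SE for Jon99Fi, -0.55 ± 0.55 SE for Jon99Fii and -0.64 ± 0.70 SE for Jon44E. Jon44E shares 49 exon bases with CG8586 on the opposite strand.

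Jon99Cii and Jon99Ciii differed from Jon99Ci beside them. Jon99Cii had 652 RPKM in B and 662 RPKM in C without manganese, and 769.7 RPKM in B and 397 RPKM in C with it, and Jon99Ciii had 672 RPKM in B and 669.5 RPKM in C without manganese, and 796 RPKM in B and 423 RPKM in C with it. In both, the no-manganese libraries were level with each other and the 5 ppm libraries were the highest and the lowest. They are known as close copies, which was not compared in sequence here, so how the authors' counting treated reads shared by both bears on each value. Their sum was 1325 and 1331 RPKM without manganese, against 1566 and 820.0 RPKM with it, with the diets overlapping. Jon25Bi and Jon25Bii may be under the same limit.

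**Figure D4:**
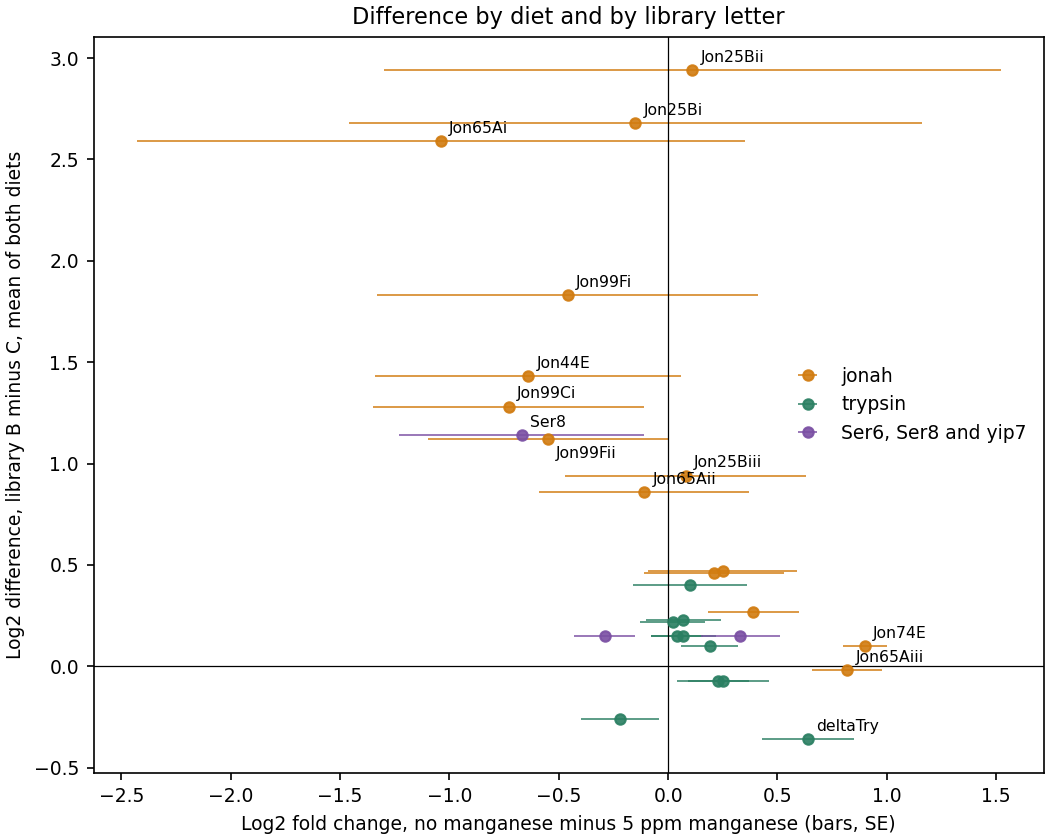
The log2 fold change of each tested member between the diets (no manganese minus 5 ppm, bars are the SE of limma) against the mean log2 difference of library B minus library C over both diets. Jon25Bii, Jon25Bi and Jon65Ai lie highest, at 2.94, 2.68 and 2.59 by letter with long bars, whereas Jon74E and Jon65Aiii lie to the right near 0 by letter with short bars.

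Taken within each letter, the diets differed in opposite directions for 7 of the 14 tested jonahs, lower without manganese in B and higher in C. The other 7 kept 1 direction, Jon74E, Jon65Aiii and Jon65Aiv higher in both pairs and Jon44E, Jon99Ci, Jon99Fi and Jon99Fii lower in both. The median log2 fold change of the tested jonahs was -0.41 within B and 0.56 within C, against 0.01 and 0.04 for all tested genes. For the tested trypsins it was 0.06 and 0.14. Jon65Ai was the widest case, at -2.52 within B and 0.43 within C. Leaving out 1 library turned the sign of the diet fold change in 11 of the 14 tested jonahs. The differences within a letter are between single libraries, with no error of their own.

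**Figure D5:**
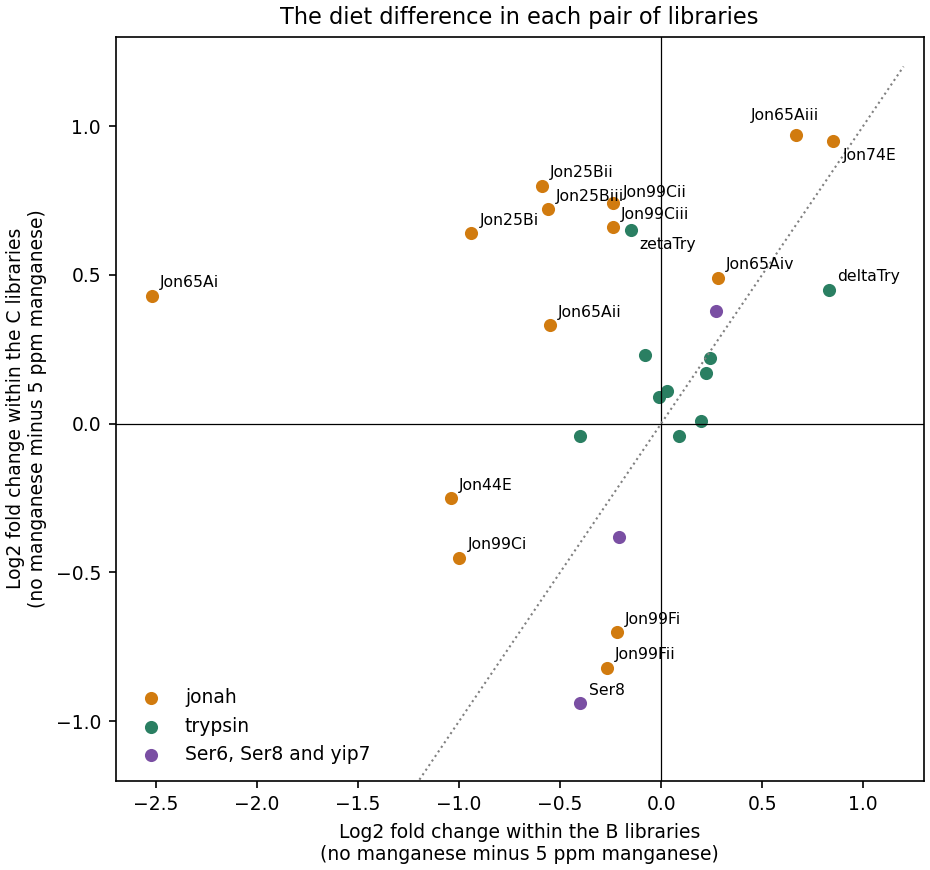
The log2 fold change of each tested member (no manganese minus 5 ppm) within the B libraries against that within the C libraries, 1 point per gene, with the dotted line where both are equal. The 7 jonahs at the upper left differ in sign between the letters, while Jon74E, at 0.85 and 0.95, lies near the line.

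The 26 genes at least 2-fold higher in B on both diets included others besides the 6 jonahs, among them the heat shock genes Hsp23 and Hsp27. Those named here were picked after their values were seen, and no shared function was tested. The lysozyme genes LysD, LysE and LysX, similar in sequence, whose enzymes digest bacterial cell walls, were among them, and LysD had 5728 RPKM in B and 2679 RPKM in C without manganese, and 6999.7 RPKM in B and 3035 RPKM in C with it. So were PGRP-SC1a and PGRP-SC1b, which encode amidases that break down peptidoglycan, and PGRP-SC1a had 4.17 RPKM in B and 0.582 RPKM in C without manganese, and 36.2 RPKM in B and 3.58 RPKM in C with it. Alp9, an alkaline phosphatase gene, had 366 RPKM in B and 142 RPKM in C without manganese, and 235 RPKM in B and 96.0 RPKM in C with it. On the opposite side were 17 genes, 0.225% of those tested, at least 2-fold higher in C on both diets, among them Yp2 and Yp3, which encode yolk proteins. Of the tested members, 0 lay on that side.

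Most trypsins differed little in size by diet or letter. All 11 lie on chromosome 2R between 11336840 and 11357537 on dm6, with 3 further genes of the table, CG30031, CG30025 and CG13202, among them. The fold changes of the 10 tested trypsins ran from -0.22 to 0.64, and 0 of them differed 2-fold between the letters on both diets. In 4 of the 10 both B libraries were above both C libraries, and in 1 both C libraries were above both B libraries. Over all tested genes the shares were 20.2% and 23.5%. alphaTry (FBgn0003863), the most abundant, had 10443 RPKM in B and 7411 RPKM in C without manganese, against 9107 RPKM in B and 7381 RPKM in C with 5 ppm. B was above C on both diets, and the log2 fold change between diets was 0.10 ± 0.26 SE. epsilonTry (FBgn0010425) had 1527 and 1601 RPKM without manganese, against 1296 and 1371 RPKM with it. Its diets did not overlap, with a log2 fold change of 0.23 ± 0.14 SE (limma, adjusted p = 0.822). betaTry had 1303 and 1148 RPKM without manganese, against 1277 and 1059.8 RPKM with it, with the diets overlapping. lambdaTry had 688 and 632 RPKM without manganese, against 591 and 563 RPKM with it, without overlap, at a log2 fold change of 0.19 ± 0.13 SE (limma, adjusted p = 0.824).

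The next trypsins by level were near each other on both diets. kappaTry had 442 and 362 RPKM without manganese, against 416 and 373 RPKM with it. thetaTry had 368 and 370.5 RPKM without manganese, against 391 and 315 RPKM with it, and etaTry had 129 and 120.3 RPKM without manganese, against 129 and 113 RPKM with it. All of these had log2 fold changes under 0.1, and the diets overlapped in each. zetaTry, with 106 and 147 RPKM without manganese, against 117 and 93.5 RPKM with it, was highest in the no-manganese library C. iotaTry (FBgn0015001), with 56.2 and 76.8 RPKM without manganese, against 74.4 and 78.8 RPKM with it, was the tested trypsin with the lower mean without manganese, at -0.22 ± 0.18 SE. Within the B libraries its log2 fold change was -0.40 and within the C libraries -0.04.

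deltaTry had the largest fold change of the trypsins but a low level. It had 9.74 RPKM in B and 11.1 RPKM in C without manganese, against 5.06 RPKM in B and 7.85 RPKM in C with 5 ppm, from 206, 237, 100 and 178 reads. The diets did not overlap, and the log2 fold change was 0.64 ± 0.21 SE (limma, adjusted p = 0.802), 0.83 within B and 0.45 within C. Without the 5 ppm library B it was 0.37. The gene is known to have near-identical copies in gammaTry, CG30025 and CG30031, which was not compared in sequence here, each of which had at most 1 read in any library. Reads common to the copies may have been dropped or given to 1 of them, so the level of deltaTry is uncertain and that of gammaTry cannot be read from its value. The 4 copies summed to 9.78 and 11.2 RPKM without manganese, against 5.11 and 7.85 RPKM with it. In addition 15 exon bases of deltaTry are shared with CG13202 on the opposite strand.

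Ser6 and Ser8, serine protease genes outside the named families, differed from each other. Ser6 (FBgn0011834, chromosome X from 20962605 to 20963505, minus strand) had 459.7 RPKM in B and 390.2 RPKM in C without manganese, against 532 RPKM in B and 507 RPKM in C with 5 ppm. It was the member with both no-manganese libraries below both 5 ppm libraries, at a log2 fold change of -0.29 ± 0.14 SE (limma, adjusted p = 0.802). Ser8, on chromosome 2R but outside the trypsin cluster, had 228 RPKM in B and 85.3 RPKM in C without manganese, against 302 RPKM in B and 165 RPKM in C with 5 ppm. Its pattern was that of Jon99Fii, with B above C on both diets and the no-manganese library the lower of each letter. The diet difference of Ser8 was -0.67 ± 0.56 SE. Within B and C it was -0.40 and -0.94.

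The remaining 4 members fell below the level tested. Jon66Cii had 0.277 and 0.595 RPKM without manganese, against 0.593 and 0.774 RPKM with it, which is 6, 13, 12 and 18 reads. Jon66Ci and gammaTry each had 1 read in the no-manganese library C and 1 in the 5 ppm library B. Ser12 had no read in any library, where 3 reads would be 0.127 to 0.146 RPKM for its 845 exon bases. A transcript under that level could go without a read at this depth, with counting error alone considered.

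The rest of protein digestion was read from lists of related genes, in which 0 genes passed. Other serine endopeptidases of this kind went both ways: of 25 tested out of 43 found, 11 were higher and 14 lower, with a median log2 fold change of -0.07. Without overlap 4 were higher and 4 lower, beside 21.7% and 15.2% of all tested genes. CG11912 had 272 and 335 RPKM without manganese, against 177 and 111 RPKM with it, and CG11911 had 1933 and 1696 RPKM without manganese, against 1273 and 704 RPKM with it. CG7542 had 1495 and 1371 RPKM without manganese, against 1138 and 997 RPKM with it, all of them higher without overlap, at 1.10 ± 0.26 SE for CG11912, 0.93 ± 0.32 SE for CG11911 and 0.43 ± 0.15 SE for CG7542 on the log2 scale. Without the 5 ppm library C the value of CG11911 was 0.51. CG10469 was lower, with 10.6 and 10.2 RPKM without manganese, against 12.9 and 17.9 RPKM with it. In this list 0 of 25 tested genes were 2-fold higher in B on both diets, against 6 of 14 jonahs and 0.344% of all tested genes. Both B libraries were on top in 10 of the 25 and both C libraries in 2, beside 20.2% and 23.5% of all tested genes.

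Carboxypeptidases, which take residues off the carboxyl end, had 9 tested genes, of which 8 were higher and 1 lower without manganese, beside 4258 and 3298 of all tested genes. Without overlap 6 were higher, beside 21.7% of all tested genes. The median log2 fold change was 0.22, beside 0.02 for all tested genes. CG8560 had 361 and 646 RPKM without manganese, against 272 and 213 RPKM with it, CG12374 had 405 and 274 RPKM without manganese, against 171 and 205 RPKM with it, and CG3097 had 11.7 and 13.5 RPKM without manganese, against 8.97 and 7.90 RPKM with it. Those were without overlap, at 1.00 ± 0.32 SE, 0.83 ± 0.23 SE and 0.53 ± 0.12 SE for CG8560, CG12374 and CG3097 (limma, adjusted p = 0.802, 0.802 and 0.786). Without the no-manganese library C the value of CG8560 was 0.58, and without the no-manganese library B that of CG12374 was 0.55. CG8562, with 140.2 and 235 RPKM without manganese, against 156 and 95.5 RPKM with it, had the diets overlapping. No test was made of the list as a whole.

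Aminopeptidases, which work from the amino end, had 7 higher and 2 lower genes among 9 tested, with a median of 0.05. All tested genes gave 4258 higher and 3298 lower, with a median of 0.02. Without overlap 3 of the 9 aminopeptidases were higher, beside 21.7% of all tested genes. CG31233 had 772 and 742 RPKM without manganese, against 499 and 599 RPKM with it, without overlap, at 0.47 ± 0.15 SE. CG8774 and CG31343 were also without overlap, at 0.28 ± 0.12 SE and 0.27 ± 0.13 SE, and CG5849 was at 0.09 ± 0.13 SE. Acid proteases had 1 higher and 4 lower among 5 tested, beside the same counts of all tested genes. CtsB, the lysosomal cathepsin B, had 928 and 925 RPKM without manganese, against 1048 and 1101 RPKM with it, lower without overlap at -0.21 ± 0.13 SE. Bace, an aspartic protease gene, was between alphaTry and epsilonTry in level, with 8151 and 6534 RPKM without manganese, against 6965 and 5831 RPKM with it. The cathepsin genes CtsF and CtsL1 were at -0.12 ± 0.14 SE and -0.07 ± 0.12 SE.

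Among 9 tested regulators tied to digestive enzymes, 4 were higher and 5 lower, beside 4258 and 3298 of all tested genes. sug, which encodes a sugar-responsive zinc finger factor, had 19.98 RPKM in B and 48.3 RPKM in C without manganese, against 4.75 RPKM in B and 16.6 RPKM in C with 5 ppm. The diets did not overlap, and it was at least 2-fold higher in C than in B on both diets, the reverse of the jonahs named above by letter. Its log2 fold change between diets was 1.68 ± 0.68 SE (limma, adjusted p = 0.802), 1.06 without the no-manganese library C and 0.87 without the 5 ppm library B. babo, the receptor of Activin signals, was at -0.13 ± 0.10 SE, Mondo, a sugar-sensing factor, at 0.18 ± 0.18 SE, and srp, a GATA factor, at 0.09 ± 0.17 SE.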

How the data were processed

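Guts of female flies on 2 diets were profiled by RNA-seq, 2 libraries per diet, after column purification of total RNA and Illumina sequencing, per the labels' protocols. The authors deposited 1 table of RPKM values, 1 column per library. Per the submitters' processing notes, STAR 2.5.2b and DESeq2 were used with the build dm6, without saying for what. Annotation, counting program, strand setting and treatment of reads shared by copies are not stated in the sources used here. Columns name the diet, a replicate letter and a running number, which passes through B on both diets before C. They do not name the numbered sample, so each was assigned to its diet. Gene symbols with their positions and exon lengths were taken from Ensembl 115 (BDGP6, dm6 coordinates), which named 13852 identifiers and left 80 unnamed. Library depth is the divisor that turns RPKM times exon length into whole reads. With it, 84.6% to 85.6% of values under 20 reads lay within 0.02 of a whole number. Reads are given beside values that rest on few.

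Genes with a mean of at least 1 RPKM (7556) were tested on the log2(RPKM + 1) scale by limma 3.58.1 (R 4.3.3), with a trend in the prior variance, 2 residual degrees of freedom and Benjamini-Hochberg adjustment over all of them, 2-sided, threshold 0.05. The code was tested on simulated data. The smallest p of an exact permutation test between 2 and 2 libraries is 0.333, and no such test is given. Described in full are, per group, the 4 members with the highest mean and the 4 with the smallest unadjusted p. From other lists up to 4 tested genes with the smallest unadjusted p are given. Members and lists were chosen with earlier results of these data known. Alternatives were other pseudocounts, filters, scalings and variance settings, a block for the letters, and omission of each library in turn. Close copies and sequences could not be compared, since no sequence was used here.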

Additional observations from a re-analysis of the deposited data

How the results depend on the processing

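With 1 library left out, a lone library being assumed to vary like the others, 0 to 11 genes were called over all tested genes: 10 higher and 1 lower without the no-manganese library B, 5 higher and 0 lower without the no-manganese library C. The counts of jonahs, trypsins and other protein digestion genes called were 0 under every alternative run. The jonah median log2 fold change ran from -0.87 to 0.69 and the trypsin median from -0.05 to 0.22. The log2 ratio of summed RPKM ran from -0.06 to 0.69 for jonahs and from -0.06 to 0.28 for trypsins. With the libraries rescaled without eggshell, yolk and mitochondrial RNA that ratio was 0.29 for jonahs and 0.14 for trypsins, against 0.27 and 0.12. Single fold changes that changed sign ran from -3.07 to 0.98 for Jon65Ai, -1.89 to 1.59 for Jon25Bi, -1.71 to 1.92 for Jon25Bii, -1.49 to 0.57 for Jon99Fi, -1.56 to 0.27 for Jon44E, -1.25 to 0.15 for Jon99Fii, -1.51 to 0.05 for Jon99Ci, -1.38 to 0.03 for Ser8, -0.76 to 0.54 for Jon65Aii, -0.71 to 0.87 for Jon25Biii, -0.23 to 0.72 for Jon99Cii, -0.25 to 0.67 for Jon99Ciii, -0.15 to 0.35 for alphaTry, -0.06 to 0.21 for betaTry, -0.06 to 0.14 for etaTry, -0.08 to 0.23 for thetaTry, -0.44 to 0.01 for iotaTry and -0.12 to 0.17 for kappaTry. Among other digestion genes named, those were CG5849 (-0.04 to 0.22), CtsF (-0.27 to 0.04), Mondo (-0.06 to 0.42), srp (-0.08 to 0.26). Jon74E (0.83 to 0.97), Jon65Aiii (0.73 to 0.91) and deltaTry (0.37 to 0.91) kept their direction. Under the other alternatives, fold changes of tested members kept direction in 294 of 296 cases, and Jon65Aii turned to 0.02 at a pseudocount of 0.1 and 0.16 with voom on recovered reads. The other filters, the variance settings and the letter block leave a gene's fold change as it is. Their cases in that count could not turn. Voom and the differences within letters were chosen after seeing the data. With the letters as a replicate block, 0 genes were called and 878 had an unadjusted p under 0.05, against 441 without it, 8 of them members against 3. With it 3 members were higher (Jon65Aiii, Jon74E, deltaTry) and 5 lower (Jon44E, Jon99Ci, Jon99Fi, Jon99Fii, Ser8), and without it 3 were higher and 0 lower. Over all 7556 tested genes 446 were higher and 432 lower with the block, and 218 and 223 without it. With 2 letters the data cannot show whether they pair the libraries. Deviations of libraries with the same letter correlated at 0.34 across 7556 genes, which are not independent. Depth limits Jon66Ci, Jon66Cii, gammaTry and Ser12.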

Other observations

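Genes at least 2-fold higher in library C than in B on both diets, picked after their values were seen, included Cyp4g1, a cytochrome P450 known for hydrocarbon synthesis in oenocytes, with 1.49 RPKM in B and 36.0 RPKM in C without manganese, and 5.13 RPKM in B and 37.9 RPKM in C with it. The fatty acid enzyme genes Fad2 and eloF were there too, Fad2 with 0.146 RPKM in B and 3.88 RPKM in C without manganese, and 0.469 RPKM in B and 3.67 RPKM in C with it. Lsp1gamma, a larval serum protein gene, had 10.5 RPKM in B and 25.3 RPKM in C without manganese, and 6.57 RPKM in B and 24.2 RPKM in C with it. Their part in the letter difference of the jonahs was not tested.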
